A study of Mus musculus with 42 samples.

Results

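Cadherins and non-clustered protocadherins, the calcium-dependent adhesion proteins with which neurons and glia recognise and hold on to their neighbours, were described across 4 hypothalamic nuclei of wild-type mice. The genes were all protein-coding genes whose symbol starts with Cdh or Pcdh followed directly by a digit, so the clustered Pcdha, Pcdhb and Pcdhg genes were left out. The rule gave 35 of the 37907 genes in the table, and used no measured value. RNA-seq had been done on the paraventricular (PVN) and arcuate (ARC) nuclei and the ventromedial (VMH) and dorsomedial (DMH) hypothalamus, cut by laser-capture microdissection from brain sections of adult male C57/BL6 mice. The mice had eaten ad libitum ("fed") or had been without food for 24 hours ("fasted"). The fed state was sampled with 5 libraries of the ARC, 6 of the VMH, 5 of the DMH and 6 of the PVN, and the fasted state with 5, 6, 4 and 5 in the same order. Each nucleus holds neurons of several kinds together with glia and vessels, and all 4 nuclei were captured from the sections of a brain. The labels do not say which libraries share a mouse, so libraries were treated as independent, and p-values measure the spread between libraries.

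In a classical (type I) or type II cadherin, the outermost repeat outside the cell binds cadherins on the next cell, mostly of the same or a closely related kind, and the tail inside the cell holds catenins that link it to actin. The delta-protocadherins (delta-1: Pcdh1, Pcdh7, Pcdh9, Pcdh11x; delta-2: Pcdh8, Pcdh10, Pcdh17, Pcdh18, Pcdh19) also bind their own kind but have other tails, which in several delta-2 members contact the WAVE complex, a regulator of actin. In the developing brain, groups of neurons that will form a nucleus carry different sets of these proteins, and such sets are known as an adhesion code.

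Levels are given as RPKM, reads scaled to the length of the gene and to the depth of the library. The libraries held an estimated 1.33 to 13.25 M reads, and at the mean depth of 4.57 M the table carries 5 added reads per gene, so no value is 0 and folds of weakly expressed genes are understated. A gene was tested if it reached 1 RPKM in at least 4 libraries. By this filter 28 of the 35 genes were tested, 26 of which exceeded, in all 42 libraries, the value that an unread gene takes. The 7 genes that did not pass were Cdh1, Cdh3, Cdh16, Cdh17, Cdh23, Cdh26 and Pcdh12, whose means over the 22 fed libraries lay between 0.182 RPKM for Cdh23 and 0.493 RPKM for Cdh16. Cdh1 is E-cadherin and Cdh3 P-cadherin, both of epithelia. Summed genes listed as markers of each nucleus (4 for the ARC, 3 each for the VMH and DMH, 5 for the PVN) were highest in the libraries of that nucleus. All 15 differed between nuclei in fed mice. The DMH list was Hcrt, Pmch and Npvf, at means of 187.2, 420.2 and 102.6 RPKM in the fed DMH. Whether Hcrt and Pmch mark the DMH itself or tissue beside it was not tested, nor was how far each cut kept to its nucleus. Estimated depth differed between fed and fasted libraries in the DMH (3.91 ± 0.862 M reads, SD, n = 5, against 7.38 ± 4.004 M, n = 4; two-sided exact permutation p = 0.0238), and this applies to every DMH comparison below.

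Taken by level, protocadherins led the group. Over the 22 fed libraries Pcdh17 averaged 59.4 RPKM, Pcdh9 58.3, Pcdh7 35.3, Cdh2 25.2 and Pcdh10 23.5, and these 5 genes made up between 46.0% (VMH) and 58.6% (PVN) of the summed RPKM of the 35. Cdh2, N-cadherin, is the general cadherin of neurons. The least abundant tested genes were Cdh19 at 1.17 RPKM and Cdh15, the M-cadherin of muscle, at 1.58 RPKM. The sum over the 35 genes was 391.5 ± 33.7 RPKM in the fed ARC (SD, n = 5), 392.3 ± 23.8 in the fed VMH (n = 6), 390.5 ± 17.0 in the fed PVN (n = 6) and 328.5 ± 16 in the fed DMH (n = 5).

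The first comparison asked which of these genes differed between the nuclei. In fed mice 17 of the 28 tested genes (60.7%) differed between the 4 nuclei (limma F test on log2(RPKM + 1), Benjamini-Hochberg adjusted p under 0.1 over all 33579 genes tested), against 12.4% of all genes. In fasted mice it was also 17 of 28, against 11.9% of all genes, and 13 genes differed in both, against 7.66%. Well-expressed genes pass more often: among the 13674 genes above their no-read value in every library, 25.5% differed in fed and 24% in fasted mice, while 17 of the 26 such cadherin genes did so in each state. All 4 delta-1 protocadherins, 4 of 5 delta-2 protocadherins, 5 of 13 type II cadherins and 1 of 3 type I cadherins differed in fed mice. Cdh13, Pcdh15 and Pcdh20, which stand outside these families, did so too. In tissue of mixed cells, a lower level cannot be told apart from fewer cells that carry the RNA.

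**Figure D1:**
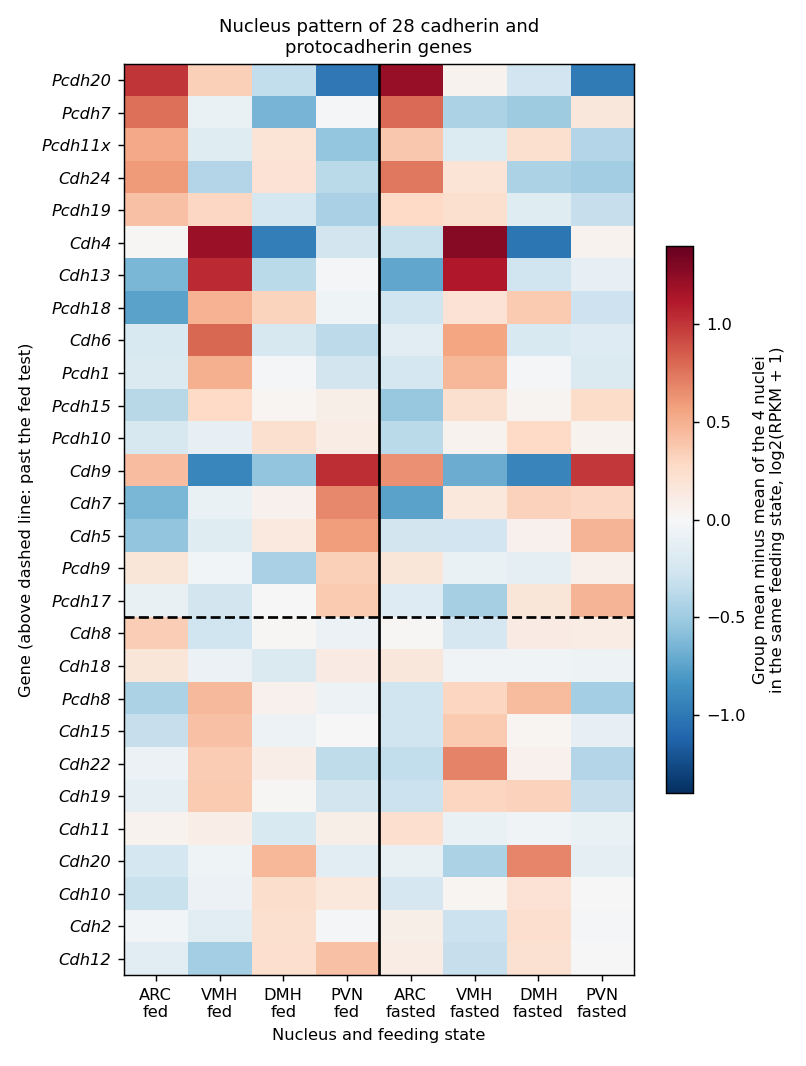
Group means of the 28 tested genes, as the difference from the mean of the 4 nuclei in the same feeding state on the log2(RPKM + 1) scale (colour, up to 1.4 in either direction), for fed (left 4 columns) and fasted (right 4 columns) libraries. Genes above the dashed line are the 17 that differed between fed nuclei, ordered by the nucleus with the highest mean; the deep red cells of Cdh4 and Cdh13 (VMH), Pcdh20 and Pcdh7 (ARC) and Cdh9 (PVN) recur in the fasted columns.

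A stricter rule asked for a nucleus that was above each of the other 3 in pairwise tests. In fed mice 7 of 28 genes met it, against 3.09% of all genes: Cdh4, Cdh13, Cdh6 and Pcdh1 in the VMH, Pcdh20 and Pcdh7 in the ARC, and Pcdh17 in the PVN. No gene met it in the DMH, where 0.298% of all genes did. In fasted mice 5 genes met it, against 2.89% of all genes, and these were Cdh4, Cdh13, Pcdh1, Pcdh20 and Pcdh7 again.

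Cdh4 (ENSMUSG00000000305, chromosome 2, 179442431 to 179899373, GRCm38) encodes R-cadherin, the type I cadherin first described in retina. Its RPKM in the fed VMH had a lowest value of 11.9, a median of 20.6 and a highest value of 25.9. In the fed ARC it was 5.54, 10.1, 8.50, 6.97 and 8.04. The fed DMH had 3.14, 3.48, 3.21, 3.15 and 4.14, and the fed PVN ranged from 4.599 to 8.72 with a median of 5.89. Every fed VMH library thus lay above every library of the other nuclei, and the DMH was lowest. On the log2 scale the VMH exceeded the ARC, the next nucleus, by 1.20 ± 0.18 (SE; limma adjusted p = 6.49e-06; two-sided exact permutation p = 0.00433) and the DMH by 2.18 ± 0.18 (adjusted p = 3.71e-11), a 5.69-fold ratio of the means. The fasted VMH had a mean of 19.8 ± 5.30 RPKM (SD, n = 6) and the fasted DMH 3.19 ± 0.869 (n = 4), a difference of 2.29 ± 0.19.

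Cdh13 (ENSMUSG00000031841, chromosome 8, 118283733 to 119324921) encodes T-cadherin, which is fixed to the membrane by a lipid anchor, has no tail for catenins, and binds adiponectin. Fed VMH libraries ranged from 24.6 to 33.6 RPKM with a median of 32.1. Fed ARC libraries had 5.36, 9.26, 11.4, 10.49 and 9.30 RPKM, and fed DMH libraries 10.2, 11.03, 12.4, 11.5 and 9.34. The fed PVN lay between 12.1 and 15.1 RPKM. No VMH library overlapped those of another nucleus, and the order was VMH, PVN, DMH, ARC in both feeding states. The VMH exceeded the PVN by 1.07 ± 0.13 (adjusted p = 6.97e-08) and the ARC by 1.68 ± 0.13 on the log2 scale (adjusted p = 8.22e-12). The fed DMH and ARC, neighbours at the low end, did not pass the test against each other.

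Cdh6 and Pcdh1 were the other genes above each of the other nuclei in the fed VMH. Cdh6, a type II cadherin first found in kidney, averaged 10.98 ± 3.80 RPKM in the fed VMH (SD, n = 6) and 4.77 ± 1.24 in the fed ARC (n = 5), with 4.89 ± 2.02 in the DMH and 4.76 ± 3.11 in the PVN. Its VMH libraries ranged from 6.80 to 14.9 RPKM, while the highest PVN library reached 10.3, so these groups overlapped. The VMH minus ARC difference was 1.02 ± 0.31 on the log2 scale (adjusted p = 0.0369), and in fasted mice Cdh6 did not pass the test over nuclei (adjusted p = 0.249). Pcdh1, a delta-1 protocadherin, averaged 22.2 ± 2.99 RPKM in the fed VMH and between 12.8 and 15.1 in the other nuclei. The VMH exceeded the DMH, the next nucleus, by 0.52 ± 0.12 in fed mice (adjusted p = 0.00512) and by 0.48 ± 0.13 in fasted mice (adjusted p = 0.0243). The summed RPKM of 6 neuron markers was also highest in the VMH, 1102 to 1278 in fed libraries against 577.1 to 643.9 in the ARC, and that of 8 oligodendrocyte markers was 226.5 to 357.1 against 87.1 to 129.3. Snap25 made up most of the neuron sum, at a mean of 812.8 RPKM in the fed VMH and 313.5 in the ARC, while Tubb3, Stmn2 and Elavl4 were highest in the fed PVN. The part of either in the VMH levels was not tested.

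In the ARC, Pcdh20 and Pcdh7 stood highest. Pcdh20 (ENSMUSG00000050505, chromosome 14, 88464743 to 88471396), a protocadherin outside the delta families, had 20.9, 13.6, 10.2, 7.01 and 9.04 RPKM in the fed ARC. Its fed VMH libraries ran from 5.28 to 10.3 RPKM with a median of 6.66. The fed DMH had 3.12, 3.40, 5.28, 3.08 and 4.78 RPKM, and the fed PVN a median of 2.30 within 0.837 to 3.25. Levels thus stepped down from the ARC to the PVN, with overlap between the ARC and the VMH. The ARC exceeded the VMH by 0.67 ± 0.21 on the log2 scale (adjusted p = 0.0529) and the PVN by 2.01 ± 0.21 (adjusted p = 1.79e-08). In fasted libraries the ARC no longer overlapped the VMH, with a lowest ARC value of 10.96 RPKM and a highest VMH value of 7.46, and the difference was 1.17 ± 0.21 (adjusted p = 0.000182).

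Pcdh7 (ENSMUSG00000029108, chromosome 5, 57717967 to 58133230) is a delta-1 protocadherin also called NF-protocadherin. Fed ARC libraries had 62.2, 54.6, 61.0, 50.7 and 58.2 RPKM. Fed DMH libraries had 20.3, 22.6, 18.4, 23.3 and 19.99 RPKM, and the VMH median of 30.4 and the PVN median of 34.4 lay between them. All ARC libraries lay above those of the other nuclei, by 0.79 ± 0.12 over the PVN (adjusted p = 2.25e-05) and 1.42 ± 0.13 over the DMH on the log2 scale (adjusted p = 7.65e-10). Its exons overlap a gene named 4932441J04Rik, and 20.4% of its 50-base stretches recur in transcripts of other genes, so its reads without strand may be partly shared. The summed markers of neurons were lowest in the ARC in fed mice, as were Snap25, Tubb3 and Stmn2 among the 6, whereas Syt1 and Rbfox3 were lowest in the PVN and Elavl4 in the DMH. The 8 tanycyte and ependymal markers, of which 4 differed between fed nuclei, summed to 23.15 to 34.2 RPKM in the fed ARC and to 10.1 to 17.4 in the DMH. The VMH (13.8 to 23.35) and the PVN (20.4 to 25.8) overlapped the ARC. Vim, the largest part of the ARC sum, was higher in the PVN (13.45 against 12.19 RPKM). Tmem212 was highest in the PVN and Foxj1 in the VMH, and the others were highest in the ARC. The part of these cells in the ARC levels was not tested.

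**Figure D2:**
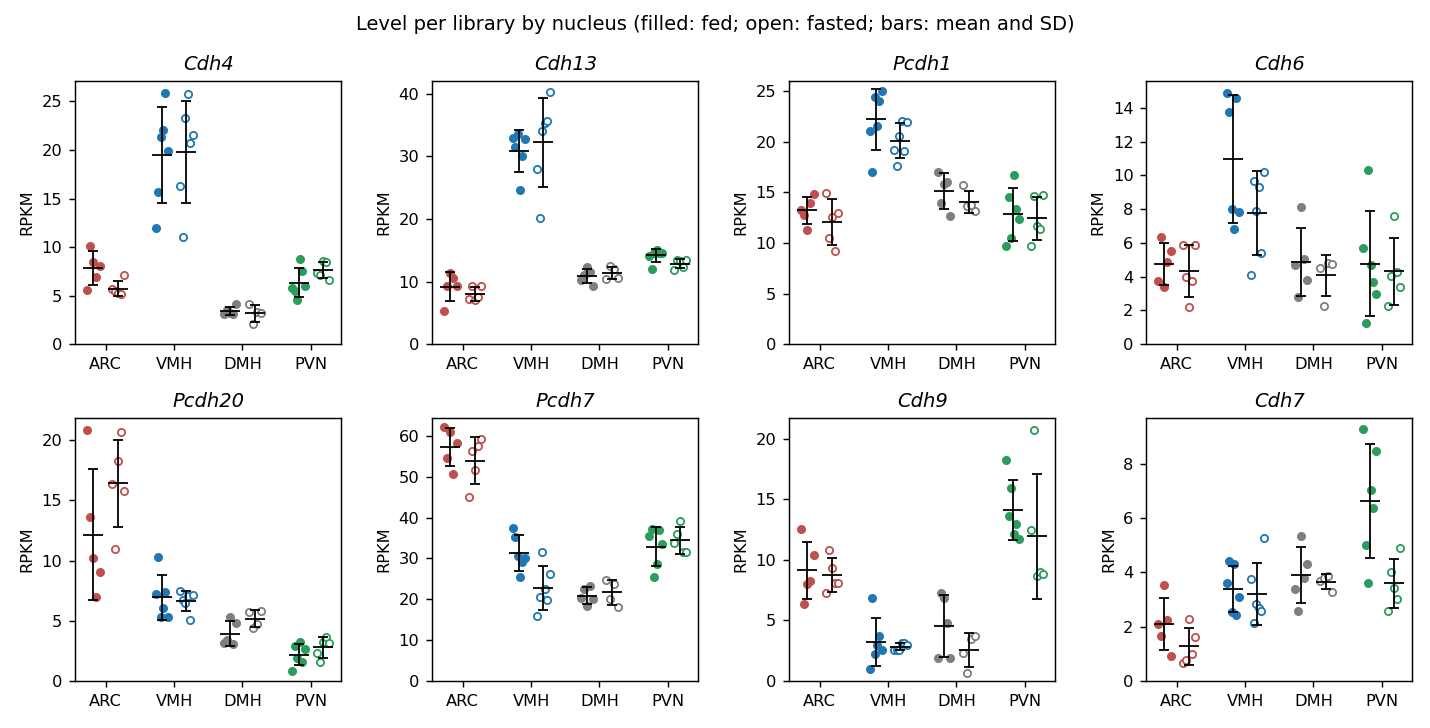
RPKM of 8 genes in every library of the ARC, VMH, DMH and PVN; filled points are fed and open points fasted libraries, and bars are the mean and SD. The VMH has the highest means in the Cdh4, Cdh13, Pcdh1 and Cdh6 panels and the ARC in the Pcdh20 and Pcdh7 panels. Cdh6 libraries of the VMH overlap those of other nuclei in both states, and fed Pcdh20 libraries of the ARC overlap those of the VMH. Cdh9 is high in both the PVN and the ARC.

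Cdh9 was high in a pair of nuclei, the PVN and the ARC. It (ENSMUSG00000025370, chromosome 15, 16728756 to 16857094) is a type II cadherin known for matching synaptic partners in the hippocampus and retina. Fed PVN libraries ranged from 11.7 to 18.2 RPKM with a median of 13.3, and fed ARC libraries had 12.5, 6.40, 8.001, 8.28 and 10.4. The fed VMH had a median of 2.77 within 1.01 to 6.86 RPKM, and the fed DMH 1.93, 7.26, 6.82, 4.76 and 1.87. The PVN and ARC did not pass the test against each other (0.59 ± 0.29 on the log2 scale, adjusted p = 0.419), while the PVN exceeded the VMH by 1.95 ± 0.27 (adjusted p = 2.47e-06), a 4.38-fold ratio of the means. In fasted mice the PVN and ARC means were 11.9 and 8.74 RPKM, against 2.83 in the VMH and 2.53 in the DMH.

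Cdh7, Cdh5, Pcdh17 and Pcdh9 had their highest fed level in the PVN. Cdh7, a type II cadherin of hindbrain and spinal cord in development, averaged 2.09 ± 0.963 RPKM in the fed ARC (SD, n = 5) and 6.62 ± 2.11 in the fed PVN (n = 6), a difference of 1.31 ± 0.21 on the log2 scale (adjusted p = 5.59e-05). In fasted mice the ARC was again lowest, at 1.27 ± 0.676 RPKM, and the DMH (3.65) and the PVN (3.59) did not pass the test against each other (0.04 ± 0.23 on the log2 scale). Pcdh17, the most abundant of the 35 genes, averaged 75.2 ± 5.14 RPKM in the fed PVN and between 49.1 and 58.0 in the other nuclei. The PVN exceeded the DMH by 0.37 ± 0.10 on the log2 scale (adjusted p = 0.0344) and the VMH by 0.63 ± 0.09 (adjusted p = 8.49e-06). Pcdh9 averaged 71.1 ± 8.74 RPKM in the fed PVN and 41.0 ± 6.51 in the fed DMH, a difference of 0.79 ± 0.14 (adjusted p = 0.000453). In fasted mice it did not pass the test over nuclei (adjusted p = 0.496), with group means from 47.1 to 58.6 RPKM.

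Cdh5, the VE-cadherin of endothelial junctions, averaged 5.29 ± 1.56 RPKM in the fed PVN (SD, n = 6) and 1.99 ± 1.22 in the fed ARC (n = 5), a difference of 1.13 ± 0.27 on the log2 scale (adjusted p = 0.00829). Beside it, 10 endothelial markers summed to 61.5 to 79.5 RPKM in fed PVN libraries and to 21.9 to 29.7 in fed ARC libraries, with no overlap, and 5 pericyte and mural markers to 102.3 to 127.8 against 42.5 to 56.6. Rgs5 made up most of the mural sum, at 101.2 RPKM in the fed PVN and 38.1 in the fed ARC. Pdgfrb and Kcnj8 were also higher in the PVN than in the ARC. Acta2 was not (5.78 against 6.30 RPKM), and Cspg4 was close (1.76 against 1.72). Of these 5 mural markers, 3 differed between fed nuclei. Of the 10 endothelial markers, 5 differed between fed nuclei and 8 between fasted nuclei, and Cdh5 itself did not pass in fasted mice (adjusted p = 0.203).

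Several delta-protocadherins split the nuclei in other ways. Pcdh19 (chromosome X, 133582860 to 133688987), the gene of an X-linked epilepsy, was high in the ARC (24.2 ± 2.90 RPKM, SD, n = 5) and the VMH (22.0 ± 1.18, n = 6) and lower in the DMH (15.1 ± 2.62) and the PVN (13 ± 2.56) of fed mice. The ARC and VMH did not pass the test against each other (0.13 ± 0.12 on the log2 scale, adjusted p = 0.802), while the ARC exceeded the PVN by 0.86 ± 0.12 (adjusted p = 5.04e-06). Pcdh11x, also on chromosome X, averaged 12.8 ± 1.15 RPKM in the fed ARC and 5.74 ± 1.78 in the fed PVN, by 1.07 ± 0.19 (adjusted p = 0.000301). Pcdh18 was lowest in the fed ARC (0.610, 1.76, 2.47, 4.35 and 3.01 RPKM) and averaged 6.60 ± 1.19 in the fed VMH, by 1.24 ± 0.23 (adjusted p = 0.000219). It did not pass the test over nuclei in fasted mice (adjusted p = 0.141). Pcdh10 passed the test over fed nuclei (adjusted p = 0.0939) but none of its pairwise tests did, with group means from 19.8 RPKM in the ARC to 27.2 in the DMH. Its call was lost in 20 of 33 alternative fits, most of which left out 1 fed library.

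Pcdh15, whose protein forms the tip links of hair cells with Cdh23, was lower in the fed ARC (2.81 ± 0.714 RPKM, SD, n = 5) than in the 3 other nuclei, whose means lay between 4.03 and 4.95. The VMH exceeded the ARC by 0.66 ± 0.11 on the log2 scale (adjusted p = 8.18e-05), and the ARC was again below each of the other nuclei in fasted mice. Cdh24, a type II cadherin, averaged 3.92 ± 2.55 RPKM in the fed ARC, where 1 of 5 libraries had 8.27 and the others 2.25 to 4.12. It exceeded the VMH by 1.01 ± 0.30 (adjusted p = 0.0346), and without that library (fed ARC replicate 5) by 0.74 (adjusted p = 0.167). Its call over fed nuclei was lost without fed ARC replicate 1 or 5.

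In fasted mice alone, Cdh2, Cdh20, Cdh22 and Pcdh8 passed the test over nuclei, while Cdh5, Cdh6, Pcdh9 and Pcdh18 passed in fed mice alone. Cdh2 averaged 29.6 ± 2.10 RPKM in the fasted DMH (SD, n = 4) and 20.6 ± 4.21 in the fasted VMH (n = 6), by 0.53 ± 0.14 on the log2 scale (adjusted p = 0.0239), and its call was lost without fasted VMH replicate 2. Its fed means had the same highest and lowest nucleus, 29.3 and 22.5 RPKM, and did not pass (adjusted p = 0.256). Cdh22, a type II cadherin of brain, was highest in the VMH in both states, at 8.09 ± 4.22 RPKM fed and 9.30 ± 3.13 fasted. Cdh20 averaged 8.56 ± 1.37 RPKM in the fasted DMH and 3.56 ± 1.58 in the fasted VMH, and its call was lost without fasted DMH replicate 1, 2 or 4 or fasted VMH replicate 2, 3, 4 or 5. Pcdh8, an activity-regulated protocadherin also called arcadlin, averaged 4.61 ± 0.817 RPKM in the fasted DMH, 4.26 ± 1.68 in the VMH and 1.997 ± 0.635 in the PVN. Of its fasted pairwise tests only that of the VMH against the PVN passed (0.78 ± 0.26 on the log2 scale, adjusted p = 0.0717). Its call over the fasted nuclei was lost without fasted DMH replicate 2 or fasted PVN replicate 1. In fed mice Pcdh8 did not pass over the nuclei (adjusted p = 0.128). The fed VMH (4.93 ± 1.93 RPKM) still exceeded the fed ARC (2.13 ± 0.850) by 0.89 ± 0.26 on the log2 scale (adjusted p = 0.0343). None of these 8 genes passed the test for a nucleus difference that changes with feeding state. The 7 genes that passed in neither state were Cdh8, Cdh10, Cdh11, Cdh12, Cdh15, Cdh18 and Cdh19, of which 6 are type II cadherins.

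Fed and fasted libraries come from different mice, so the fasted group means give the nucleus pattern a second time, although the spread used in both tests was pooled over all 42 libraries. The 28 genes had 54 pairwise differences between fed nuclei past the threshold. All 54 had the same sign in the fasted libraries, and 37 of them (68.5%) passed there as well. Over all genes 93.2% of 11194 such differences kept their sign and 54.7% passed again. These differences share groups and are not independent of each other. In fed mice 12 genes separated the ARC from the VMH (42.9% of the 28, against 7.9% of all genes), 8 the ARC from the DMH (against 2.79%) and 10 the ARC from the PVN (against 4.13%). The VMH was separated from the DMH by 7 genes (against 5.24%) and from the PVN by 11 (against 9.84%), and the DMH from the PVN by 6 (21.4%, against 3.42%). In fasted mice these counts were 13 (against 8.91%), 10 (against 3.21%) and 9 (against 4.19%) for the ARC in the same order, 6 (against 3.94%) and 11 (against 9.24%) for the VMH, and 3 (10.7%, against 3%) for the DMH and PVN. By count alone, the ARC and the VMH were set apart by the most genes and the DMH and the PVN by the fewest, in both states. The fed counts next to these were 11 and 7, so the fed ranking rests on single genes. Over all genes the fed share was largest between the VMH and the PVN (9.84%) and smallest between the ARC and the DMH (2.79%). Group sizes also differ, so the counts do not rank the nuclei by how different these genes are. Between the fed VMH and DMH all 7 genes that passed were higher in the VMH, and of the 6 that passed between the fasted VMH and DMH 3 were higher in each.

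**Figure D3:**
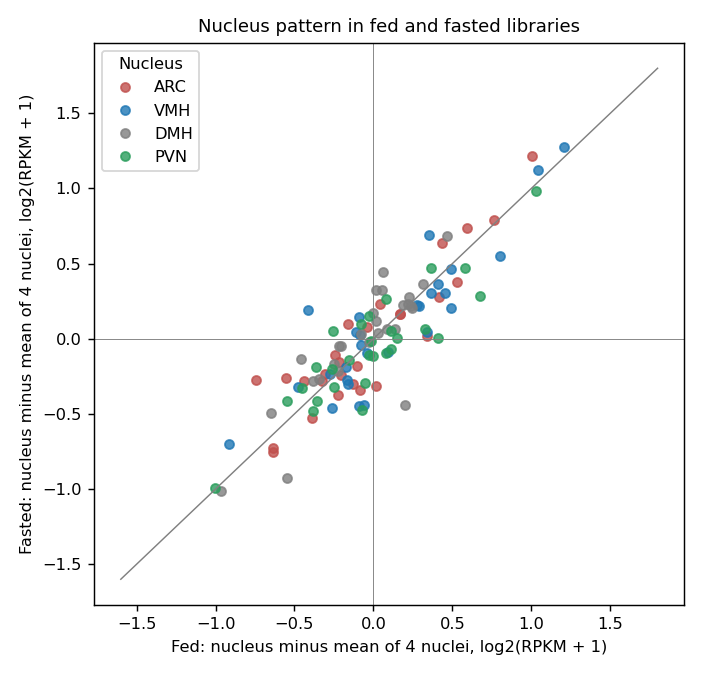
Each point is a gene in a nucleus: its mean in that nucleus minus its mean over the 4 nuclei, log2(RPKM + 1), in fed (x axis) and fasted (y axis) libraries, for the 28 tested genes. The diagonal marks equal differences; the points farthest from 0 lie close to it, including the VMH and DMH points of Cdh4 and the ARC and PVN points of Pcdh20.

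The low values of the table recur within 3 sets of libraries and differ between the sets. The methods describe 3 processing batches that the labels do not assign to libraries. Whether values had been adjusted by set before deposit was not tested, and the tests take no account of such an adjustment. The smallest set, of 10 libraries, was uneven, with 2 libraries of each VMH group, 1 of the fed DMH and 0 of the fasted DMH. The reported fit has no term for the set, so part of a nucleus difference could come from this unevenness. For all 17 genes, the fed difference between the highest and the lowest nucleus had the same sign within each of the 3 sets. The genes and these nuclei were chosen from the same fed libraries, so this agreement was largely fixed in advance and cannot exclude an effect of the sets. The smallest of these within-set differences was 0.07 for Cdh6, and the smallest for Cdh4, Cdh9, Pcdh20, Cdh13 and Pcdh7 were 1.82, 1.70, 1.54, 1.399 and 1.30 on the log2 scale. In the fasted libraries 16 of the 17 genes kept the sign in every set that held both nuclei, the exception being Pcdh18.

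Neighbouring genes on chromosomes 14 and 15 had different orders of nuclei. Pcdh11x and Pcdh19 on chromosome X, 12.67 megabases apart, were both highest in the fed ARC and lowest in the PVN. Pcdh10 and Pcdh18 on chromosome 3, 4.31 megabases apart, both had their lowest fed mean in the ARC. No pairwise test of Pcdh10 passed in fed mice. On chromosome 14, Pcdh17 (84443563 to 84539002, plus strand), Pcdh20 (88464743 to 88471396, minus strand) and Pcdh9 (93013410 to 93890679, minus strand) follow each other with gaps of 3.93 and 4.54 megabases. Pcdh17 and Pcdh9 were highest in the fed PVN, while Pcdh20 was lowest there and highest in the ARC. On chromosome 15, Cdh6 (VMH highest, PVN lowest) lies 3.56 megabases from Cdh9 (PVN highest, VMH lowest), and the next 3 genes, Cdh10, Cdh12 and Cdh18, did not differ past the threshold. The 250 bases before the RefSeq start of these 3 chromosome 14 genes (GRCm38.p6) are shown because Pcdh20 was lowest in the nucleus where its 2 neighbours were highest, with each CG dinucleotide in capitals, read 5′ to 3′ on the strand of the gene.
Pcdh17, chr14:84443313-84443562: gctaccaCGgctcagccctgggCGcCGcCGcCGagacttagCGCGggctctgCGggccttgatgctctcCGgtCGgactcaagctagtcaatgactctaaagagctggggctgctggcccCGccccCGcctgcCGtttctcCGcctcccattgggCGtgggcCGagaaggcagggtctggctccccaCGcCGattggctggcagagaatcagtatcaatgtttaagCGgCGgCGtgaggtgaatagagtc
Pcdh20, chr14:88471397-88471646: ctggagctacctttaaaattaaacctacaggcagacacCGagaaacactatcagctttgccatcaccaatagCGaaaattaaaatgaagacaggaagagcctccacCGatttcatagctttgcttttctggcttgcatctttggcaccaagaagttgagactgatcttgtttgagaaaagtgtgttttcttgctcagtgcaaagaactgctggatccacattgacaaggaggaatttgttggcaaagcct
Pcdh9, chr14:93890680-93890929: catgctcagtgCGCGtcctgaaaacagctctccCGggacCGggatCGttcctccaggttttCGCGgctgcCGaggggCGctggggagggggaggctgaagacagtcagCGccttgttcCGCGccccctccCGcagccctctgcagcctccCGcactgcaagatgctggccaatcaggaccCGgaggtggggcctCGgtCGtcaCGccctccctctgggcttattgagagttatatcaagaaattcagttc
The Pcdh17 window holds 21 CG dinucleotides and the Pcdh9 window 18, against 3 in that of Pcdh20 and a median of 6 over all 32851 windows. A count of 21 or more occurs in 16.3% of all windows and a count of 3 or fewer in 37.8%. The GC box GGGCGG, searched on both strands, occurs in the Pcdh17 window and not in the others, and in 32.7% of all windows. Of the 35 genes, 22 had such a window, and 9 of these held the GC box.

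The partners of these proteins were read from lists of other genes. Of 17 catenins and junction partners, 8 differed between fed nuclei and 8 between fasted nuclei, against 12.4% and 11.9% of all genes. Ctnnb1, beta-catenin, did not pass in fed mice (means from 53.4 to 62.1 RPKM, adjusted p = 0.391), whereas Ctnna2, the neuronal alpha-catenin, did, at 19.5 RPKM in the ARC and 13.1 in the PVN (adjusted p = 0.0138). Nectin3, an adhesion protein that works beside cadherins, averaged 10.9 RPKM in the fed VMH and between 4.73 and 5.71 in the other nuclei. Ptprk, a receptor phosphatase that binds its own kind, was lowest in the fed VMH at 8.34 RPKM and highest in the PVN at 28.9. Among 13 tested genes of the wider cadherin superfamily, 9 differed between fed nuclei, against 12.4% of all genes and 25.5% of those above their no-read value in every library. Fat1, a giant cadherin, averaged 22.6 RPKM in the fed PVN against 7.63 to 8.85 in the other nuclei, and Celsr2, a cadherin of the planar polarity pathway, 28.01 in the VMH against 14.3 to 19.1. Of 10 genes listed as protocadherin and actin links 3 differed, close to the 25.5% of genes above their no-read value in every library. Each of the 3 was highest in the fed VMH: Nckap1 at 116.2 RPKM and Cyfip2 at 114 RPKM, both of the WAVE complex, and Abi2 at 61.2 RPKM. Of 5 sheddase and processing genes only Psen2 passed in fed mice, against the same 12.4% and 25.5%.

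The remaining comparison asked whether 24 hours without food changed these genes. In the VMH 1 of 28 genes passed, Pcdh17, against 0.131% of all genes. No gene passed in the ARC, DMH or PVN, where 0.0566%, 0.0238% and 0.0715% of all genes did. By the unadjusted p, with a threshold of 0.05, 3, 1 and 3 of the 28 genes stood out there, against 7.5%, 6.48% and 5.53% of all genes. In the mean of the 4 nuclei 1 gene passed, again Pcdh17, against 0.5% of all genes. No gene passed the test for a fasting change that differs between nuclei, which 0.00596% of all genes passed. By the unadjusted p of limma Pcdh7 alone stood out, against 4.39% of all genes, with an adjusted p of 1.

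Pcdh17 (ENSMUSG00000035566), a delta-2 protocadherin that gathers at synapses and guides axon contacts, had 70.6 RPKM in 1 fed VMH library and 37.8 to 51.6 in the other 5, with a median of 45.6. Fasted VMH libraries ranged from 30.3 to 43.4 RPKM with a median of 34.5. All 6 fasted libraries lay below the fed mean, although the groups overlapped through the lowest fed library. Pcdh17 fell by 0.43 ± 0.09 on the log2 scale in the VMH (SE; limma adjusted p = 0.0817; two-sided exact permutation p = 0.013). Without the fed library at 70.6 RPKM the difference was -0.32 (adjusted p = 0.184). The call was also lost when fasted VMH replicate 1, 2 or 4 or fed VMH replicate 3 or 4 was left out (adjusted p from 0.113 to 0.218), and under 5 other fits, such as that with the library set as a factor (adjusted p = 0.119). Within the 3 library sets the difference was -0.68, -0.41 and -0.19.

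In the ARC the fed libraries had 60.1, 54.1, 55.4, 51.7 and 49.0 RPKM of Pcdh17 and the fasted libraries 40.5, 48.3, 42.1, 41.1 and 45.8. The groups did not overlap, which was the case for 0.742% of all genes in the ARC, but the difference of -0.31 ± 0.10 did not pass over all genes (adjusted p = 0.505; exact permutation p = 0.00794, the smallest that 5 against 5 can give). The fasted minus fed difference was -0.06 ± 0.11 in the DMH and -0.12 ± 0.10 in the PVN (adjusted p = 1 in each). Averaged over the nuclei Pcdh17 fell by 0.23 ± 0.05 (adjusted p = 0.0294), with a negative value in each of the 4 nuclei. Because the nuclei share mice that the labels do not identify, the spread of this mean may be understated. The 4 signs are likewise not independent of each other. The test of whether the change differs between nuclei gave an unadjusted p of 0.0514 (adjusted p = 1).

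No other gene passed in any nucleus. Pcdh7 in the VMH averaged 31.3 ± 4.33 RPKM fed and 22.8 ± 5.47 fasted (SD, n = 6 each), a difference of -0.46 ± 0.12 on the log2 scale (adjusted p = 0.14), which passed without fasted VMH replicate 3 (adjusted p = 0.0422) or 6 (adjusted p = 0.0983). Pcdh18 in the VMH averaged 6.60 RPKM fed and 4.48 fasted, a difference of -0.50 ± 0.22 (adjusted p = 0.563), with all 6 fasted libraries below the fed mean. Cdh7 in the PVN averaged 6.62 RPKM fed (3.60 to 9.25) and 3.59 fasted (2.56, 4.01, 3.43, 3.03 and 4.91), a difference of -0.70 ± 0.21 (adjusted p = 0.428). Pcdh9 in the PVN had means of 71.1 and 54.4 RPKM (adjusted p = 0.734), and Pcdh15 there 4.23 and 5.17 (adjusted p = 0.873). In the ARC, Pcdh20 had means of 12.2 RPKM fed and 16.4 fasted (0.47 ± 0.22, adjusted p = 0.647), and Cdh4 7.84 and 5.73 (-0.38 ± 0.18, adjusted p = 0.658). In the DMH, Cdh24 averaged 2.50 RPKM fed and 1.05 fasted without overlap (1.15% of all genes there), with a difference of -0.77 ± 0.33 (adjusted p = 0.7). Cdh19 and Cdh9 followed in the DMH, with differences of 0.71 ± 0.36 and -0.61 ± 0.32 (adjusted p = 0.797 and 0.833).

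**Figure D4:**
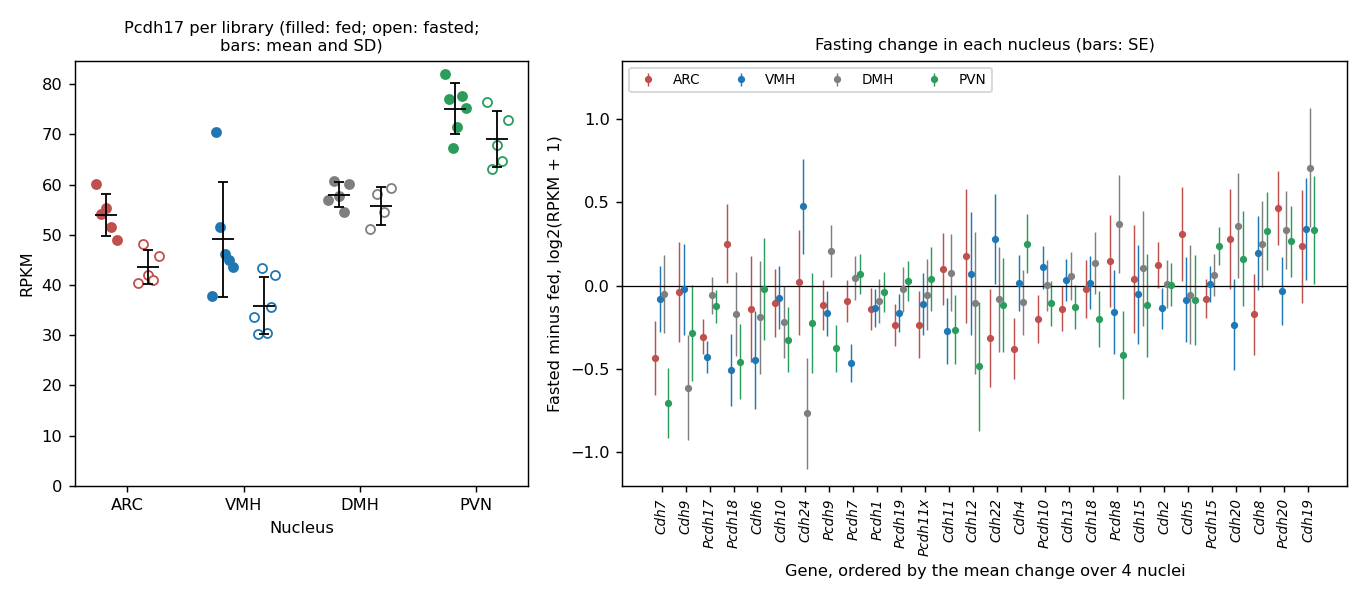
Left, Pcdh17 RPKM in every library by nucleus (filled fed, open fasted, bars mean and SD); the open points lie lower in the ARC and the VMH. Right, fasted minus fed difference of log2(RPKM + 1) with its SE for the 28 tested genes in each nucleus, ordered by the mean over nuclei; Pcdh17 in the VMH (-0.43) is the only value past the threshold.

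Over the 28 genes the median log2 difference between fasted and fed libraries was -0.11 for the PVN, -0.08 for the ARC, -0.07 for the VMH and -0.01 for the DMH. In the mean of the nuclei 21 of 28 genes (75%) were negative, against 50.7% of the 13674 genes above their no-read value in every library. The span between the highest and lowest fed nucleus had a median of 0.82 over the genes, while the largest fasting difference in any nucleus had a median size of 0.34. The span was the larger in 27 of 28 genes, the exception being Cdh19. A span is the most extreme of 6 pairs of nuclei and the fasting value the most extreme of 4 differences, so these sizes are descriptions. Among the partners, Ptprk rose in the fasted ARC by 0.76 ± 0.16 (adjusted p = 0.0613), and Fat1 fell by 0.56 ± 0.12 in the fasted PVN (adjusted p = 0.0944).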

How the data were processed

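RNA-seq was performed in 42 libraries of 4 laser-captured hypothalamic nuclei from fed and fasted wild-type mice. RNA was amplified with the NuGEN Ovation V2 chemistry, and reads were single-end and without strand. The submitters' processing notes name CASAVA 1.7, TopHat2 2.0.11, Cufflinks 2.2.1, edgeR and limma, and the build GRCm38. The authors deposited RPKM values and removed outlier samples before deposit. Reads added to each gene (5 in the mean library, 1.46 to 14.5 in all), the estimated depth and the 3 library sets (10, 16 and 16 libraries) were read from recurring low values, of which 97.8% to 98.9% per library lay within 0.05 of a whole read above the no-read value. Symbols and positions came from GENCODE M21 and matched 35965 IDs.

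Because the deposited values are not counts, limma 3.58.1 in R 4.3.3 was applied to log2(RPKM + 1), with a filter of 1 RPKM in at least 4 libraries (33579 genes), a mean for each of the 8 groups and no covariate, an intensity trend, two-sided tests and Benjamini-Hochberg adjustment over all genes (threshold 0.1). Every adjusted p is from this fit unless another is named. SE values are on the log2 scale, which understates folds of low genes. Exact permutation tests used log2 values. The genes and lists were chosen with earlier results of these data known. Genes past a test were named. Most detail went to genes with the largest fed span among them, though not strictly in that order. Where no gene passed a fasting test, the 3 with the smallest p were given. Tested on simulated data, the fed nucleus test recovered 88% of 100 genes changed by 1 on the log2 scale and the ARC fasting test 82%. All fasting differences of the 28 genes were smaller than 1, at most 0.77 in size. Recovery of changes that small was not tested. Alternatives were another pseudocount, filter, normalisation or weighting, a replicate block, library set or depth as a covariate, subtraction of the no-read value, only the libraries compared, and leaving out each library.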

Additional observations from a re-analysis of the deposited data

Results flagged for a closer look

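In 6 of 104 groups (13 genes in 8 groups), 1 library lay far from the rest of its group by Dixon's test, where chance gives about 1 in 20. Pcdh11x had 3 of these: 18.5 RPKM in ARC fasted replicate 1 (the other 4 libraries at 8.57 to 10.3), 11.5 in VMH fasted replicate 2 (others 5.25 to 7.46) and 8.96 in PVN fasted replicate 1 (others 4.84 to 5.37), all high and all in library set 1. Cdh4 had 7.10 RPKM in ARC fasted replicate 5 (others 5.14 to 5.64), Cdh13 had 12.1 in PVN fed replicate 2 (others 14.1 to 15.1), and Cdh6 had 2.29 in DMH fasted replicate 2 (others 4.50 to 4.80). Pcdh11x kept its call over fasted nuclei in all 31 alternatives run, which include leaving out each of these libraries.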

How the results depend on the processing

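The number of genes that differed between fed nuclei (17) lay between 15 and 19 over 33 alternatives, and between 15 and 18 when 1 library was left out. For fasted nuclei (17) it lay between 15 and 18 over 31, and the leave-one-out range was also 15 to 18. Of the 17 fed genes, 15 were called in every one of the 33 alternatives; Cdh24 was lost in 3 and Pcdh10 in 20. Cdh20 was lost in 11 of 31 alternatives for fasted nuclei, Pcdh8 in 4 and Cdh2 in 1. The VMH fasting count (1) was 0 with only the libraries compared (adjusted p of Pcdh17 0.983), array weights (0.19), quantile normalisation (0.139), the replicate block (0.124) and the library set as a factor (0.119), and ranged from 0 to 2 when 1 library was left out, with Pcdh7 as the added gene. With only the 12 VMH libraries the spread of each gene rests on fewer samples. The PVN count (0) became 1 with array weights, through Cdh7. The count for the mean of the nuclei stayed at 1 in 52 alternatives, and that for a change that differs between nuclei stayed at 0. None of these alternatives could group the libraries of a mouse. Of 474 single values under an alternative, 456 kept their direction and side of the threshold, 12 were no longer past it, 6 newly passed and none reversed. The reported fit did not use the replicate numbers as pairs. The correlation of deviations lay between -0.121 and 0.054 over 20 fed and fasted pairs of equal number. Over 58 pairs of nuclei within a feeding state it lay between -0.131 and 0.065. Whether libraries of the same mouse would show a higher correlation was not tested, so these values cannot show whether equal numbers share a mouse. The replicate block gave 16 genes for fed and 16 for fasted nuclei. Depth limits genes near 1 RPKM most, and the DMH comparisons rest on libraries of unequal depth.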
